A study of Mus musculus with 12 samples.

Results

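The mitochondrial respiratory chain genes described here are the nuclear genes whose symbols begin with *Nduf*, *Uqcr*, *Cox4*, *Cox5*, *Cox6*, *Cox7*, *Cox8*, or *Atp5*, together with *Sdha*, *Sdhb*, *Sdhc*, *Sdhd*, and *Cycs*. Of 91 symbols that matched these names, 86 had at least 20 reads summed over 12 libraries, out of 26608 genes counted. *Cox6a2* lay just above this limit with 21 reads and *Cox4i2* just below it with 13. *Ndufa4l2* had 3 reads, and *Cox7b2*, *Cox8b*, and *Cox8c* had 0, which for each allows up to 3 reads over the 12 libraries by counting error alone. RNA was sequenced from sorted CD4+ YFP(FOXP3)- T cells of mice aged 14 weeks, whose spleen was pooled with lymph nodes (cervical, inguinal), with 4 libraries each from WT, DKO-moderate, and DKO-severe mice. All mice carried *Foxp3-Cre*. The WT mice had no floxed *Tet* alleles named in their labels, and the DKO mice were *Foxp3-Cre Tet2/3* fl/fl and were divided into DKO-moderate and DKO-severe by the total number of leukocytes in spleen and lymph nodes. Because Cre is driven by *Foxp3* and the sort removes YFP(FOXP3)+ cells, the DKO libraries can hold both ex-Treg cells, which lost FOXP3, and CD4+ T cells that never expressed Cre. In such bulk libraries, fewer cells of a type and less RNA per cell cannot be told apart.

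The respiratory chain sits in the inner mitochondrial membrane. Complex I (NADH dehydrogenase) and complex II (succinate dehydrogenase) pass electrons to ubiquinone, complex III passes them to cytochrome c, and complex IV (cytochrome c oxidase) passes them to oxygen. Complex V uses the proton gradient built by the chain to make ATP. Use of the chain changes when naive T cells are activated and divide, and the complexes need both nuclear and mitochondrial DNA-encoded subunits. None of the 13 mitochondrial DNA-encoded subunit genes was in the count table, so the genes below are nuclear. By role the 86 members were 36 genes of complex I, 5 complex I assembly factors, 4 of complex II, 8 of complex III, 14 of complex IV (with *Ndufa4*, now placed there), 15 of complex V, the cytochrome c gene *Cycs*, the supercomplex factor *Cox7a2l*, the coupling factor gene *Atp5s*, and *Cox4nb*, which matches by name but encodes a subunit of the endoplasmic reticulum membrane complex (EMC8).

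Each library had between 29254260 and 42133536 reads on genes, and the members took 0.730% to 1.09% of them. Values are given as CPM, reads scaled to a common library total with TMM factors. The library DKO-moderate 4 stood apart in the member genes before any comparison. It was the highest of the 4 DKO-moderate libraries for 77 of 86 members, with a median log2 ratio of 0.529 to the mean of the other DKO-moderate libraries, against -0.0288 over all genes of at least 5 CPM. In that library, 323 other genes with up to 1 kb of exon had a median log2 ratio of 0.405, genes over 3 kb had -0.222, and 92 cytosolic ribosomal protein genes had 0.262. The part of transcript length or RNA quality in the member values of this library was not tested, and results for DKO-moderate are given with and without it. The median coefficient of variation of the 82 members with a mean of at least 5 CPM was 7.21% in WT, 8.68% in DKO-severe, and 20.9% in DKO-moderate, where it was 5.29% without DKO-moderate 4. *Tet3* was at 167 to 210 CPM in WT, 90.3 to 185 in DKO-moderate, and 87.8 to 102 in DKO-severe, and *Foxp3* was at 0.130 to 3.10 CPM over all libraries. *Tet2* was not lower in the DKO groups, at 43.3 to 62.2 CPM in WT, 34.8 to 57.8 for DKO-moderate, and 56.7 to 65.8 for DKO-severe. Gene-level counts include exons outside the floxed parts, so neither *Tet* gene checks the deletion. T cell marker genes summed to 4262 to 4880 CPM in WT, 5056 to 5607 in DKO-moderate, and 4209 to 4603 in DKO-severe. For the marker genes called higher in DKO-severe against WT below, the share over all genes tested was 26.6%. Neutrophil marker genes summed to 0.0273 to 4.66 CPM in WT, 0.399 to 9.11 in DKO-moderate, and 11.2 to 2284 in DKO-severe, where the 4 libraries held 2284, 841, 24.6, and 11.2 CPM, with 11 of 12 called higher in DKO-severe and none of the 12 at 0 in all libraries. B cell marker genes summed to 6.87 to 233 CPM in WT and 68.2 to 406 in DKO-severe, with 1 of 9 called higher. Monocyte and macrophage genes summed to 24.5 to 227 CPM in WT and 127 to 598 in DKO-severe, with 4 of 8 called higher. Plasma cell genes summed to 61.0 to 155 CPM in WT and 196 to 344 in DKO-severe, with no overlap and 3 of 6 called higher, and erythroid genes to 0.632 to 20.9 and 11.9 to 47.9 CPM, with 2 of 7 called higher. WT 3 held the highest WT sum in each of these sets. Its B cell genes were at 233 CPM, against 6.87 to 15.3 in the other WT libraries. The CD8 T cell genes summed to 16.8 to 26.7 CPM in WT, 3.13 to 8.52 in DKO-moderate, and 1.03 to 13.2 in DKO-severe. The 12 proliferation genes, all called higher in DKO-severe, summed to 354 to 420 CPM in WT, 574 to 868 in DKO-moderate, and 887 to 1954 in DKO-severe. Y-linked genes were at or near 0 in WT 2, DKO-moderate 2, DKO-moderate 4, and DKO-severe 3. The part of other cells, of proliferation, and of sex in the results below was not tested beyond the fits with neutrophil and B cell terms and with a Y-linked term, and no fit had a term for plasma cells, monocytes, erythroid cells, or proliferation.

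The summed level of the members was about the same in DKO-severe and WT after TMM scaling. All 86 members together summed to 8455, 8159, 7688, and 7833 CPM in the 4 WT libraries, to 8215, 7893, 7992, and 10650 CPM in DKO-moderate, and to 8793, 7470, 8116, and 8097 CPM in DKO-severe. The DKO-severe libraries spanned the WT libraries, with a mean of 101% of WT, and in DKO-moderate only library 4 lay above the highest WT library. The DKO-moderate mean was 108% of WT with that library and almost that of WT without it (99.99%). By complex, the DKO-severe mean was 99.4% of WT for complex I, 100.1% for complex II, 102% for complex III, 110% for complex IV, 106% for complex V, and 79.2% for the 5 complex I assembly factors. Complex IV summed to 1101 ± 33.3 CPM (SD, n = 4) in WT and 1216 ± 102 CPM (SD, n = 4) in DKO-severe, and every DKO-severe library was above the highest WT library, by as little as 1132.4 against 1131.8 CPM. The assembly factors summed to 114 ± 11.5 CPM (SD, n = 4) in WT and 89.9 ± 3.49 CPM (SD, n = 4) in DKO-severe, with no overlap. The fall was not shared by the set, since 2 of the 5 genes were called lower and 3 had a log2 fold change above 0 (median 0.06). The statement depends on the scaling. As a plain share of reads on genes, the members took 0.730% to 0.798% in WT and 0.815% to 0.926% in DKO-severe, which did not overlap, and the TMM factors were 0.922 to 0.950 in WT and 1.05 to 1.09 in DKO-severe.

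**Figure D1:**
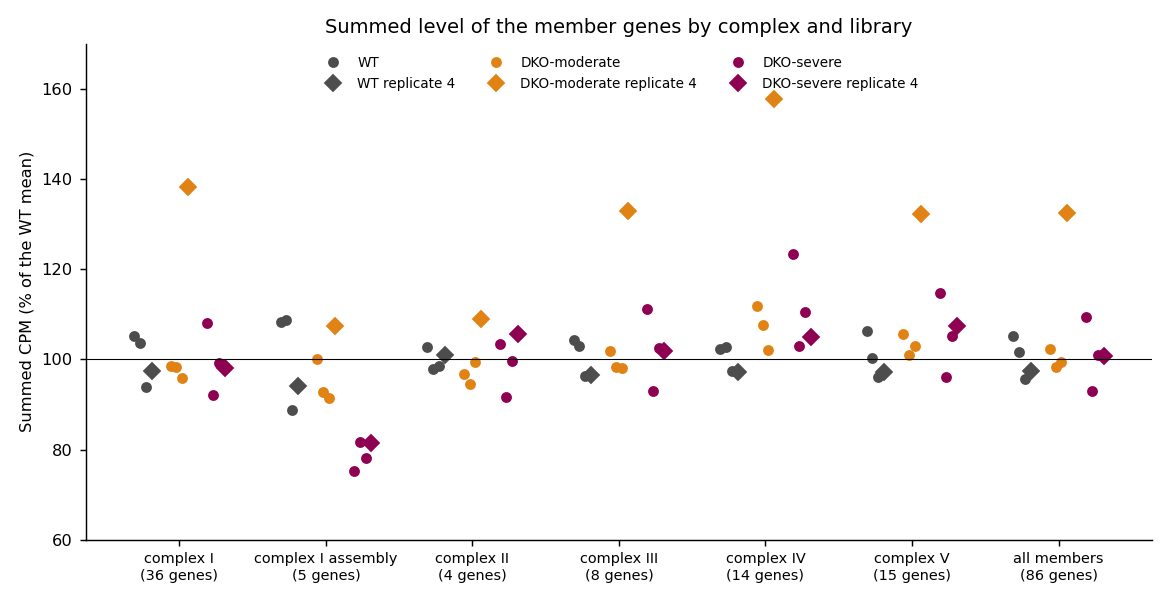
Summed CPM of the member genes of each complex in each library, as a percent of the WT mean (y axis, from 60), with circles for replicates 1 to 3 and diamonds for replicate 4 of each group. DKO-moderate 4 stands above the other 3 DKO-moderate libraries in every set, while the DKO-severe libraries lie on both sides of 100% for complexes I, II, III, and V, above it for complex IV, and below all WT libraries for the assembly factors.

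In DKO-severe against WT, 18 of 86 members passed an adjusted p of 0.05 in edgeR's quasi-likelihood test (25 at an unadjusted p under 0.05), with 10 higher and 8 lower. This was 20.9% of the members, against 52.6% of all 16035 genes tested (26.6% higher and 25.9% lower). The median log2 fold change of the members was 0.08, against -0.01 over all genes tested. The changes were small. Where the higher group averaged 5 CPM or more, 72 of 82 members had a log2 fold change under 0.5 in size, against 6027 of 10480 genes, and the 82 members lay between -0.89 and 0.70, so that none reached 2-fold, while 20.7% of those genes were called with a change of at least 2-fold. The 95% confidence interval of the log2 fold change lay within -1 to 1 for 79 of the 86 members and within -0.5 to 0.5 for 43. The count of calls moved with DKO-moderate 4, which shares the fit's estimate of the spread. Without this library 34 members were called, 24 higher and 10 lower, and in a fit of WT and DKO-severe alone 25 were higher and 9 lower. It also depended on the scaling, with 18 higher and 4 lower under DESeq2's size factors and 26 higher and 4 lower under library size alone, which moved the median of all genes to 0.18 and that of the members to 0.26. Of the members named below as not passing in DKO-severe, library size alone called *Atp5a1*, *Atp5b*, *Atp5g3*, *Cox6b1*, *Cox7a2*, *Cox7b*, *Cycs*, and *Uqcrc2* higher. With terms for the neutrophil and B cell marker genes in the fit, 2 members were called, both lower (*Cox7a2l* with a log2 fold change of -0.75 and *Ndufa6* with -0.59), the median of the members was -0.08, and 3194 of all genes tested were called. Of the 18 calls, 8 were lost under these terms and in none of the other alternatives at the same threshold, namely *Atp5sl*, *Cox6b2*, *Cox8a*, *Ndufa12*, *Ndufaf4*, *Ndufb8*, *Sdhd*, and *Uqcr10*. Under the terms the log2 fold changes of *Cox6b2* (2.03), *Sdhd* (0.52), *Ndufaf4* (-0.57), *Atp5sl* (-0.51), and *Ndufa12* (0.40) stayed within 1.5 times of those without the terms, while those of *Cox8a* (0.39), *Uqcr10* (0.41), and *Ndufb8* (0.29) were smaller by more than that. The neutrophil marker sums of WT and DKO-severe did not overlap, so in this fit the terms and the group cannot be fully told apart. Whether RNA of other cells accounts for any of these changes was not tested. In each of 23 alternative settings the share of members called was below the share of all genes called.

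**Figure D2:**
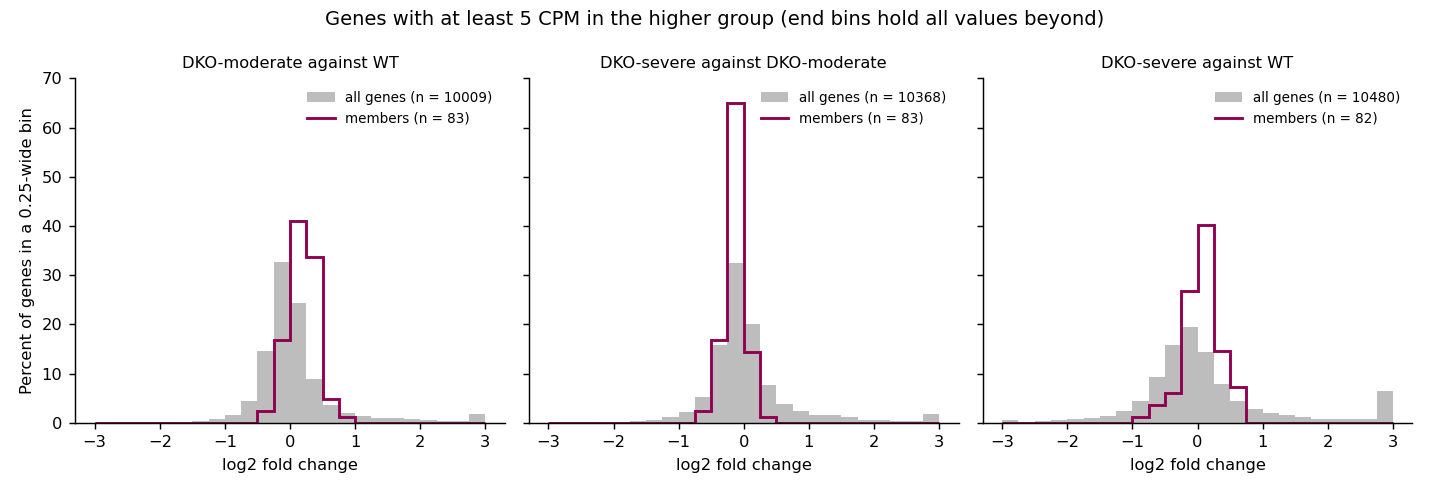
Percent of genes (y axis) in bins of the log2 fold change (x axis) for the members (line) and for all tested genes (grey) with 5 CPM or more in whichever group was higher, in each of the 3 comparisons. In DKO-severe against WT the 82 members lie between -0.89 and 0.70 on the log2 scale, while the grey distribution reaches both end bins.

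In DKO-moderate against WT, 7 members were called, 6 higher and 1 lower, or 8.14% against 17.1% of all genes tested (12.3% higher and 4.74% lower). The median log2 fold change of the members was 0.21 with 69 of 86 above 0. Without DKO-moderate 4 it was 0.02 with 48 above 0, and 4 members were called higher and 1 lower. In DKO-severe against DKO-moderate, 3 members were called, all lower (1 member was higher at an unadjusted p under 0.05, and 1 with DESeq2 and 4 with limma voom passed as higher), or 3.49% against 20.1% of all genes tested (9.41% higher and 10.7% lower). The median log2 fold change was -0.10, and without DKO-moderate 4 it was 0.07, with 3 higher and 3 lower. With the neutrophil and B cell terms no member was called in this comparison, where 1.58% of all genes tested were called. DKO-severe and DKO-moderate were compared with the same WT libraries, so the values of the 2 comparisons are given side by side and are not independent.

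**Figure D3:**
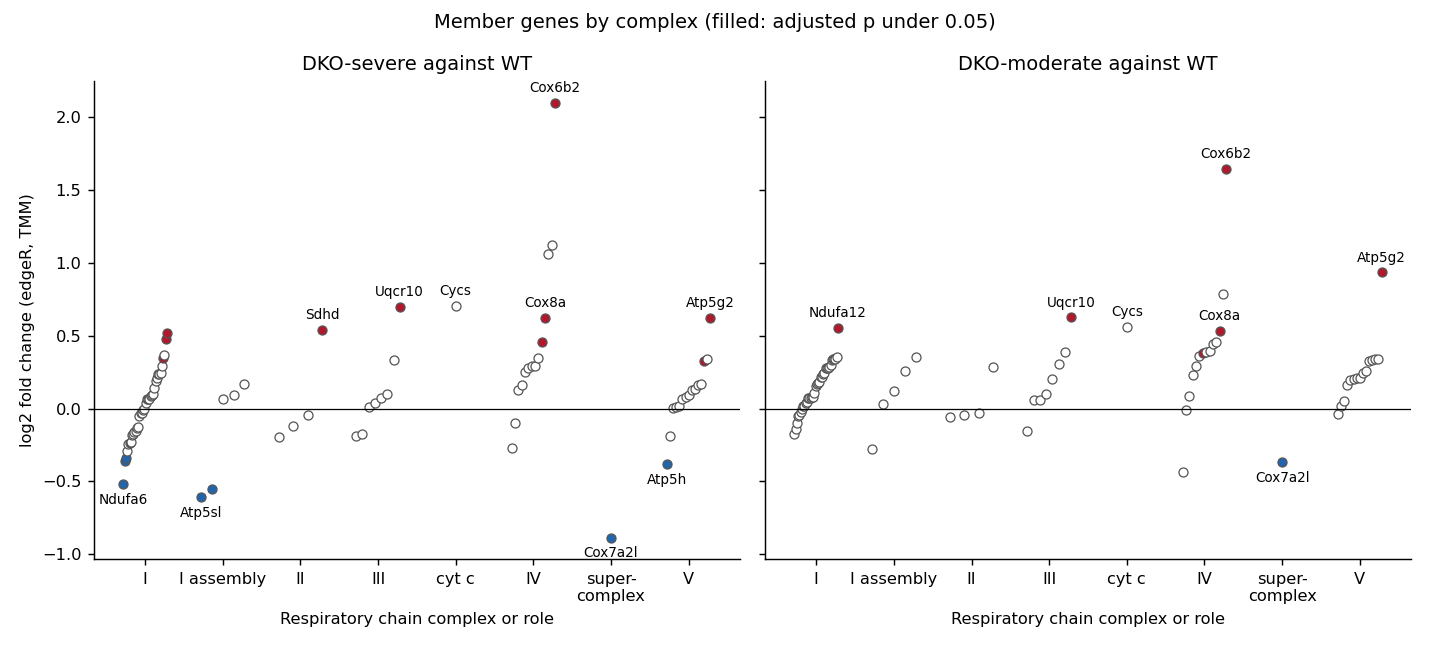
The log2 fold change (y axis, edgeR with TMM) of each member by complex or role (x axis) in DKO-severe and in DKO-moderate against WT, ordered by value within a set, without *Atp5s* and *Cox4nb*. Filled points passed an adjusted p of 0.05, red higher and blue lower, and apart from the lowly expressed *Cox6b2* the called genes lie between -0.89 and 0.93.

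The supercomplex factor was the member that fell furthest. *Cox7a2l* (also called SCAF1, chr17:83501918-83517330, minus strand, GRCm38) encodes a protein related to the COX7A subunits linked to the joining of complexes III and IV into a supercomplex. The mice were on the B6 background, and C57BL/6 mice are known to carry a shortened form of this protein that is impaired in that role. Levels were 499, 474, 426, and 452 CPM across WT, 374, 283, 401, and 375 CPM across DKO-moderate, and 250, 248, 265, and 240 CPM across DKO-severe. All 4 DKO-severe libraries were below all DKO-moderate libraries, and these were below all WT libraries, so that no 2 groups overlapped. The log2 fold change was -0.89 in DKO-severe against WT (standard error, SE, of 0.10, edgeR adjusted p = 3.81e-05), -0.37 between DKO-moderate and WT (SE of 0.10, edgeR adjusted p = 0.029), and -0.52 in DKO-severe against DKO-moderate (SE of 0.10, edgeR adjusted p = 0.00737). The call in DKO-severe against WT held in all 22 alternatives at the same threshold, with log2 fold changes of -0.92 to -0.70. The call in DKO-moderate was lost in 6 of 22, among them without WT 1, WT 2, or WT 4 (adjusted p up to 0.0869). Per kilobase of exon, *Cox7a2l* was at 404 ± 27.1 CPM (SD, n = 4) in WT, second of the 86 members, and at 219 ± 9.30 CPM (SD, n = 4) in DKO-severe, eighth of them. Its neighbour in the family, *Cox7a2*, a complex IV subunit, was at 48.8 ± 4.17 CPM in WT and 59.6 ± 3.85 CPM in DKO-severe (SD, n = 4), with an edgeR adjusted p of 0.0653. The share of *Cox7a2l* in the reads of both genes fell from 90.4% ± 1.23 (SD, n = 4) in WT to 84.8% ± 2.77 in DKO-moderate and 80.8% ± 1.22 in DKO-severe. Each DKO group differed from WT with a two-sided exact permutation p of 0.0286, the smallest that 4 libraries against 4 allow. The share is made from the *Cox7a2l* reads compared above, so it is not separate evidence. Of the 100-base windows of *Cox7a2l*, 9.90% also occur in another annotated gene (*Gm6969*), and reads that match both genes equally are not among the uniquely mapped reads that were counted.

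**Figure D4:**
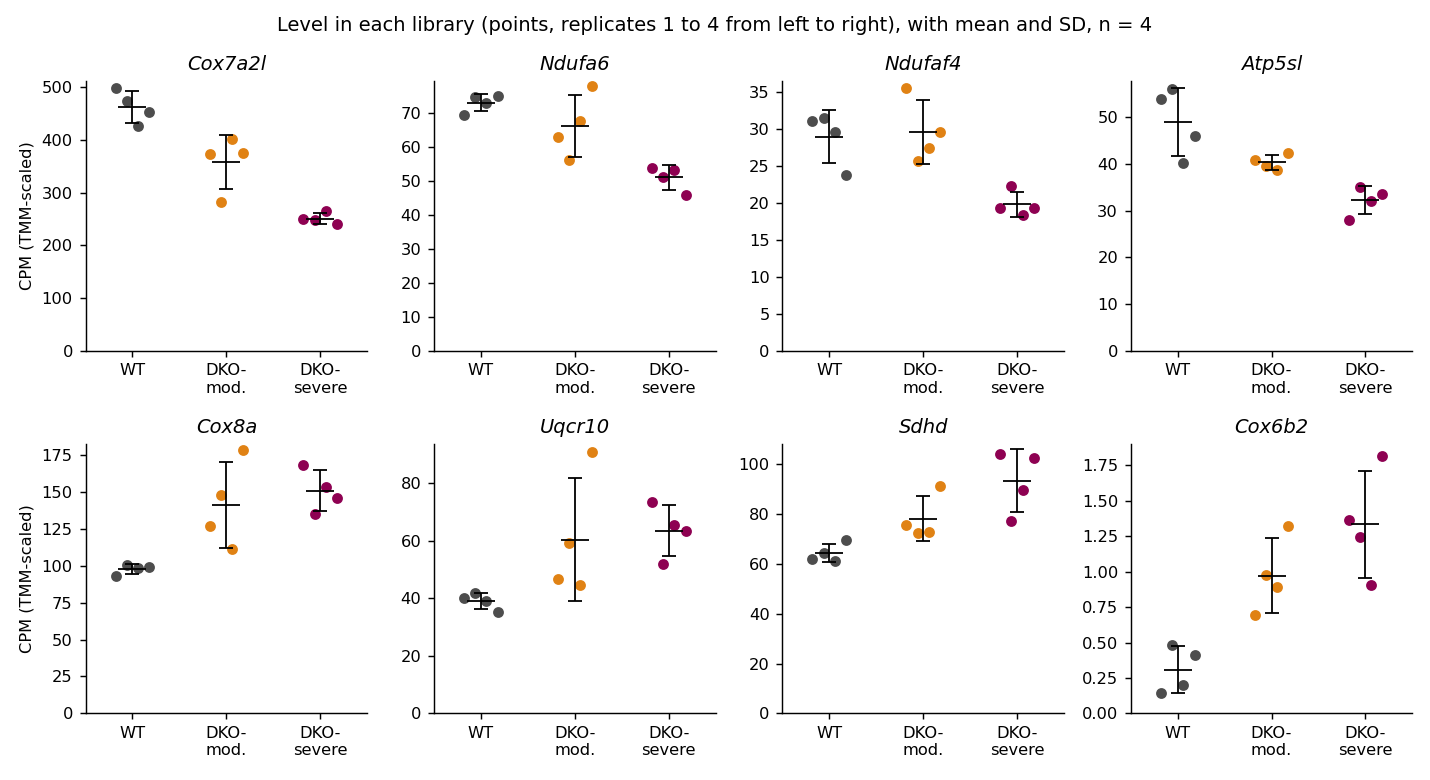
TMM-scaled CPM (y axis, from 0) of 8 members in each library (points, replicates 1 to 4 from left to right in each group), with the mean and SD of 4 libraries. *Cox7a2l*, *Ndufa6*, *Ndufaf4*, and *Atp5sl* are lower and *Cox8a*, *Uqcr10*, *Sdhd*, and *Cox6b2* higher in the 4 DKO-severe libraries than in the 4 WT libraries, with no overlap.

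In complex I, 3 of 36 genes rose and 4 fell in DKO-severe against WT, with a median log2 fold change of 0.02. Over all genes tested, 26.6% were higher and 25.9% lower, and these shares stand beside the counts of the other complexes below as well. *Ndufa6* (chr15:82350140-82354322, minus strand, GRCm38), an accessory subunit of the matrix arm, fell most. WT libraries 1 to 4 held 69.4, 74.6, 72.9, and 74.8 CPM, DKO-moderate libraries 62.8, 56.2, 67.5, and 77.7 CPM, and DKO-severe libraries 53.8, 51.1, 53.3, and 45.8 CPM. The DKO-severe libraries were below every library of both other groups, while DKO-moderate overlapped WT. The log2 fold change was -0.52 against WT (SE of 0.10, edgeR adjusted p = 0.000784) and -0.37 against DKO-moderate (SE of 0.10, edgeR adjusted p = 0.0188), and the call against WT held in all 22 alternatives. The call against DKO-moderate was lost in 5 of 22, among them without DKO-moderate 3 or DKO-severe 4 (adjusted p up to 0.187).

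*Ndufs7*, a core subunit that carries the last iron-sulfur cluster before ubiquinone, was at 70.7, 59.1, 54.9, and 57.4 CPM across WT and 51.2, 44.5, 46.1, and 49.2 CPM across the DKO-severe libraries. The groups did not overlap, and its log2 fold change was -0.34 (SE of 0.12, edgeR adjusted p = 0.0265). The accessory subunits *Ndufb3* (log2 fold change -0.36, edgeR adjusted p = 0.0499) and *Ndufa10* (-0.24, edgeR adjusted p = 0.0302) were the other genes of complex I that fell. The calls of *Ndufs7*, *Ndufb3*, and *Ndufa10* were lost in 8, 18, and 11 of 22 alternatives. Leaving out WT 1, DKO-severe 2, DKO-severe 3, or DKO-severe 4 ended each of the 3 calls, leaving out WT 2 or WT 4 also those of *Ndufa10* and *Ndufb3*, and leaving out WT 3, DKO-moderate 1, DKO-moderate 3, or DKO-severe 1 also that of *Ndufb3*.

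*Ndufb8*, an accessory subunit of the membrane arm, rose. The 4 WT libraries gave 43.4, 42.9, 42.3, and 42.3 CPM, those of DKO-moderate 43.9, 53.4, 48.0, and 72.8 CPM, and those of DKO-severe 65.0, 53.9, 60.1, and 59.5 CPM, and both DKO groups were above all WT libraries. Its log2 fold change in DKO-severe was 0.48 (SE of 0.13, edgeR adjusted p = 0.00937), or 0.29 with the neutrophil and B cell terms (edgeR adjusted p = 0.379). *Ndufa12*, an accessory subunit next to the NADH-oxidizing module, had 19.4, 22.8, 24.0, and 26.4 CPM across the WT libraries, 29.1, 31.9, 27.97, and 46.9 CPM across DKO-moderate, and 34.6, 30.2, 34.1, and 33.5 CPM across DKO-severe. Neither DKO group overlapped WT. Against WT, its log2 fold change was 0.52 in DKO-severe (edgeR adjusted p = 0.0155) and 0.55 in DKO-moderate (edgeR adjusted p = 0.0303), or 0.35 without DKO-moderate 4 (edgeR adjusted p = 0.0473). The call in DKO-moderate was lost without WT 1, WT 2, WT 3, or DKO-moderate 2. The core subunit *Ndufv2* of the same module also rose, with a log2 fold change of 0.35 (edgeR adjusted p = 0.0296), though the lowest DKO-severe library, at 74.5 CPM, was below the highest WT library, at 76.2 CPM. Its call was lost without WT 1, WT 3, or DKO-severe 1, and its log2 fold change was 0.18 with the neutrophil and B cell terms. The other core subunits examined did not pass in DKO-severe. *Ndufv1*, which binds NADH and the flavin, had a log2 fold change of -0.03 (95% confidence interval -0.32 to 0.25), and *Ndufs1*, the largest subunit, -0.15 (-0.34 to 0.04).

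Of the 5 complex I assembly factors among the members, 2 fell in DKO-severe. *Atp5sl* (now *Dmac2*, an assembly factor of the distal membrane arm, chr7:25619414-25625551, plus strand, GRCm38) measured 53.8, 56.1, 40.2, and 46.0 CPM in the WT libraries, 40.9, 39.6, 38.6, and 42.4 CPM in those of DKO-moderate, and 28.1, 35.1, 32.0, and 33.5 CPM in those of DKO-severe. DKO-severe was below all libraries of the other groups. Its log2 fold change against WT was -0.61 (SE of 0.11, edgeR adjusted p = 0.000654). *Ndufaf4* (chr4:24898083-24905001, plus strand, GRCm38), which acts early in assembly of the matrix arm, had 31.0, 31.5, 29.6, and 23.7 CPM across the WT libraries, 35.6, 25.7, 27.4, and 29.5 CPM across DKO-moderate, and 19.3, 22.2, 18.4, and 19.3 CPM across DKO-severe. DKO-moderate overlapped WT and DKO-severe was below both. The log2 fold change was -0.55 against WT (SE of 0.13, edgeR adjusted p = 0.00307) and -0.58 against DKO-moderate (SE of 0.13, edgeR adjusted p = 0.00976). *Ndufaf1*, *Ndufaf2*, and *Ndufaf3* did not pass in any comparison.

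In complex II, *Sdhd* rose in DKO-severe and the other 3 subunits did not pass. *Sdhd*, a membrane anchor with the ubiquinone site, measured 62.1, 64.2, 61.3, and 69.4 CPM in the WT libraries, 75.8, 72.3, 72.9, and 91.4 CPM in those of DKO-moderate, and 104.0, 77.3, 89.6, and 103 CPM in those of DKO-severe. Both DKO groups were above all WT libraries. The log2 fold change was 0.54 in DKO-severe (SE of 0.11, edgeR adjusted p = 0.00128) and 0.28 in DKO-moderate (SE of 0.11, edgeR adjusted p = 0.0904). *Sdhc*, the other anchor, differed by -0.12 on the log2 scale in DKO-severe (95% confidence interval -0.33 to 0.09), the iron-sulfur subunit *Sdhb* -0.19 (-0.42 to 0.03), and the flavoprotein *Sdha* -0.05 (-0.19 to 0.10). *Sdha* varied little, at 318, 306, 327, and 324 CPM in WT, 303, 301, 320, and 314 CPM in DKO-moderate, and 302, 286, 315, and 332 CPM in DKO-severe, and the 3 groups overlapped.

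The promoters of *Sdhd* and *Sdha* hold motifs known from promoters of respiratory chain genes and are given with that of *Cox7a2l*, the member that fell furthest. Each is the 100 bases before the RefSeq start, 5′ to 3′ on the gene's strand, in GRCm38.p6, with matches to the NRF1 motif (GCGCA, any base, then GCGC) or the ETS motif CCGGAAG (on either strand) in capitals.
Sdhd (chr9:50603850-50603949, minus strand): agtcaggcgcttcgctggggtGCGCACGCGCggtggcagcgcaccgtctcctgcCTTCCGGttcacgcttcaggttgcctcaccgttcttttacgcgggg
Sdha (chr13:74350241-74350340, minus strand): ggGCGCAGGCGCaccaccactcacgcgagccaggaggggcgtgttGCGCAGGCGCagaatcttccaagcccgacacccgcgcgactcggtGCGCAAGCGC
Cox7a2l (chr17:83514334-83514433, minus strand): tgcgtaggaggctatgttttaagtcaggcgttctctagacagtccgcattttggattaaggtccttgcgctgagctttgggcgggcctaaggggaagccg
The *Sdhd* stretch holds 1 NRF1 and 1 ETS match, the *Sdha* stretch 3 NRF1 matches, and the *Cox7a2l* stretch neither. NRF1 and the ETS factor GABP (also named NRF2) are known activators of nuclear respiratory chain genes, as is YY1.

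Over the RefSeq window from 250 bases before to 50 after the start, 73 of the 86 members had an entry. The NRF1 motif was found in 18 of these (24.7%) and in 5.19% of all 27025 genes with an entry. The ETS motif was found in 17 members (23.3%) and in 9.93% of all genes, and the YY1 motif AAGATGGC in 11 members (15.1%) and in 3.19% of all genes, each searched on both strands and counted without regard to overlap with another motif. Among the members with an entry, NRF1 matches stood in 2 of 10 that were higher in DKO-severe, in 3 of 8 that were lower, and in 13 of 55 that were not called. A match is a description of the letters and does not show binding.

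In complex III, *Uqcr10* was the gene called, of 8. It encodes a small subunit near cytochrome c1 (chr11:4701973-4704342, minus strand, GRCm38). Levels were 40.2, 41.8, 39.1, and 35.3 CPM across WT, 46.6, 59.2, 44.6, and 90.8 CPM across DKO-moderate, and 73.2, 51.8, 65.2, and 63.5 CPM across DKO-severe, so that both DKO groups were above all WT libraries. Its log2 fold change was 0.70 in DKO-severe (SE of 0.20, edgeR adjusted p = 0.0105) and 0.63 in DKO-moderate (SE of 0.20, edgeR adjusted p = 0.0469). With the neutrophil and B cell terms the value in DKO-severe was 0.41 (edgeR adjusted p = 0.399), and without DKO-moderate 4 that in DKO-moderate was 0.36 (edgeR adjusted p = 0.0869). The DKO-moderate mean was 60.3 CPM with library 4 and 50.1 CPM without it, and the call was lost in 13 of 22 alternatives, 8 of them leaving out a library: WT 1, 2, 3, or 4, DKO-moderate 2 or 4, or DKO-severe 3 or 4 (adjusted p up to 0.140 over all alternatives). The core proteins *Uqcrc1* (log2 fold change 0.07, 95% confidence interval -0.16 to 0.30) and *Uqcrc2* (0.04, -0.11 to 0.19) and the Rieske iron-sulfur protein *Uqcrfs1* (-0.17, -0.38 to 0.03) did not pass in DKO-severe.

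Cytochrome c, the carrier between complexes III and IV and a trigger of apoptosis when released, is encoded by *Cycs*. WT libraries 1 to 4 held 41.9, 13.3, 42.3, and 39.0 CPM, DKO-moderate libraries 32.2, 48.4, 50.5, and 70.1 CPM, and DKO-severe libraries 62.9, 44.0, 60.4, and 55.1 CPM. WT 2 was far below the other WT libraries, and DKO-severe was above all WT libraries. In DKO-severe the log2 fold change was 0.70 (SE of 0.32, edgeR adjusted p = 0.0805) and 0.44 without WT 2 (edgeR adjusted p = 0.116), so it did not pass in either. Of its 100-base windows, 24.7% are shared with 3 other annotated genes.

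In complex IV, 3 of 14 genes rose in DKO-severe and the other 11 did not pass, with a median log2 fold change of 0.29. *Cox8a* (chr19:7215153-7217616, minus strand, GRCm38), the smallest subunit, had 92.9, 100.3, 98.4, and 99.3 CPM across the WT libraries, 127, 148, 111, and 178 CPM across DKO-moderate, and 168, 135, 153, and 146 CPM across DKO-severe. Both DKO groups were above all WT libraries and overlapped each other. On the log2 scale it rose by 0.62 in DKO-severe (SE of 0.13, edgeR adjusted p = 0.00144) and 0.53 in DKO-moderate (SE of 0.13, edgeR adjusted p = 0.0137), or 0.39 without DKO-moderate 4 (edgeR adjusted p = 0.0257). With the neutrophil and B cell terms the rise in DKO-severe was not called, at 0.39 (edgeR adjusted p = 0.214). *Cox5b*, a zinc-binding subunit, was at 57.6, 74.6, 71.4, and 72.8 CPM across WT and 108, 85.3, 91.5, and 94.97 CPM across the DKO-severe libraries, which did not overlap. Against WT, its log2 fold change was 0.46 (SE of 0.15, edgeR adjusted p = 0.025), and the call was lost without WT 1 or DKO-severe 1 and with the neutrophil and B cell terms, under which the value was 0.25 (edgeR adjusted p = 0.548). *Cox7b*, a subunit needed for assembly of the complex, was called in DKO-moderate (log2 fold change 0.38, edgeR adjusted p = 0.0473) but kept its call in 5 of 22 alternatives, DKO-moderate 3 being the 1 library whose removal did not end it, and had 0.29 in DKO-severe (edgeR adjusted p = 0.0585).

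*Cox4i1*, the main nuclear subunit that regulates the complex, went the other way in value. The 4 WT libraries gave 338, 301, 286, and 308 CPM, those of DKO-moderate 297, 256, 282, and 391 CPM, and those of DKO-severe 281, 246, 259, and 234 CPM. DKO-severe was below all WT libraries, and the log2 fold change was -0.27 (SE of 0.12, edgeR adjusted p = 0.0769), or -0.24 without DKO-moderate 4 (edgeR adjusted p = 0.0192). *Cox5a*, which pairs with *Cox4i1* on the matrix side, had a log2 fold change of 0.16 (95% confidence interval -0.12 to 0.44). Per kilobase, *Cox4i1* was at 403 ± 28.7 CPM (SD, n = 4) in WT, the third level among the members, after *Atp5b* at 410 ± 16.3 CPM and *Cox7a2l*, and these 3 levels differed by less than their spread.

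The tissue-specific isoforms of complex IV were at low levels. *Cox6b2* (chr7:4751792-4753094, minus strand, GRCm38), known as the testis isoform, had 5 to 76 reads per library. Levels were 0.144, 0.484, 0.201, and 0.410 CPM across WT, 0.691, 0.977, 0.894, and 1.32 CPM across DKO-moderate, and 1.36, 1.25, 0.905, and 1.82 CPM across DKO-severe. Both DKO groups were above all WT libraries. It changed by a log2 value of 2.10 in DKO-severe (SE of 0.42, edgeR adjusted p = 0.00141) and 1.64 in DKO-moderate (SE of 0.42, edgeR adjusted p = 0.019), or 1.46 without DKO-moderate 4 (edgeR adjusted p = 0.0472). The call in DKO-moderate was lost without WT 1. The common isoform *Cox6b1* was at 98.2 ± 3.70 CPM in WT and 119 ± 14.3 CPM in DKO-severe (SD, n = 4, edgeR adjusted p = 0.126). The share of *Cox6b2* in the reads of both was 0.315% ± 0.166 in the WT libraries, 0.752% ± 0.127 for DKO-moderate, and 1.12% ± 0.370 for DKO-severe (SD, n = 4), with a two-sided exact permutation p of 0.0286 for each DKO group against WT. This share, too, restates the *Cox6b2* reads given above. *Cox7a1*, the heart and skeletal muscle isoform, had 2 to 15 reads per library and differed by 1.12 on the log2 scale in DKO-severe (SE of 0.53, edgeR adjusted p = 0.0956), and *Cox6a2*, of the same tissues, had 0 to 7 reads per library, for which a change was not detectable at this depth.

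In complex V, 2 of 15 genes rose and 1 fell in DKO-severe. *Atp5a1* and *Atp5b* were the members with the highest CPM and varied little, with log2 fold changes of 0.08 (95% confidence interval -0.09 to 0.26) and 0.07 (-0.13 to 0.26). Under library size alone both were called higher, at 0.27 (edgeR adjusted p = 0.0141) and 0.25 (edgeR adjusted p = 0.0351). *Atp5j*, of the peripheral stalk, measured 71.9, 80.2, 77.5, and 73.6 CPM in the WT libraries, 89.1, 86.6, 84.6, and 123 CPM in those of DKO-moderate, and 107, 89.9, 89.2, and 94.6 CPM in those of DKO-severe, with both DKO groups above WT. It differed from WT by 0.33 on the log2 scale in DKO-severe (SE of 0.12, edgeR adjusted p = 0.0306) and 0.34 in DKO-moderate (edgeR adjusted p = 0.0634). The call was lost without WT 1, WT 4, or DKO-severe 1 and with the neutrophil and B cell terms, under which the value was 0.12 (edgeR adjusted p = 0.698). *Atp5h*, another subunit of the stalk, went the opposite way, at 215, 178, 159, and 156 CPM across WT and 144, 136, 141, and 124 CPM across the DKO-severe libraries, which did not overlap. Against WT, its log2 fold change was -0.38 (SE of 0.13, edgeR adjusted p = 0.031). That call was lost in 10 of 22 alternatives, among them without WT 1, WT 2, or DKO-severe 2, 3, or 4 (adjusted p up to 0.243).

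The membrane ring of complex V is made of a c subunit that 3 genes, *Atp5g1*, *Atp5g2*, and *Atp5g3*, encode with the same mature protein. *Atp5g2* (chr15:102662864-102672352, minus strand, GRCm38) had 34.6, 70.7, 63.6, and 71.7 CPM across the WT libraries, 116, 122, 105, and 117 CPM across DKO-moderate, and 115, 104, 77.7, and 72.7 CPM across DKO-severe. WT 1 was the lowest, and both DKO groups were above all WT libraries. It differed from WT by a log2 fold change of 0.93 in DKO-moderate (SE of 0.21, edgeR adjusted p = 0.0105) and 0.62 in DKO-severe (SE of 0.21, edgeR adjusted p = 0.0257), and the latter was lost without DKO-severe 1. With the neutrophil and B cell terms the value in DKO-severe was 0.05 (edgeR adjusted p = 0.936) and that in DKO-moderate 0.87 (edgeR adjusted p = 0.0196). These counts are uncertain, since 86.4% of the 100-base windows of *Atp5g2* also occur in *Gm10175* or *Gm10231*. Reads that match these genes equally have no single position. The study's reads were paired and longer than a window, so a shared window does not by itself exclude a read. *Atp5g1* (log2 fold change 0.16, edgeR adjusted p = 0.397) and *Atp5g3* (0.34, edgeR adjusted p = 0.0636) did not pass in DKO-severe. The share of *Atp5g2* in the reads of the 3 genes was 21.5% ± 5.65 (SD, n = 4) in the WT libraries, 30.1% ± 4.44 for DKO-moderate, and 25.6% ± 4.48 for DKO-severe, with two-sided exact permutation p-values of 0.0857 and 0.314 against WT. *Atp5l* (61.3% of windows) was the other member with over 50% of its windows shared, and 68 of the 86 members had none. Apart from *Atp5g2* and *Cox7a2l*, the called members with shared windows were *Atp5h* (29.5%, with *Gm10250*), *Ndufa12* (17.7%, with *Gm15920*), and *Cox5b* (8.09%, with *Gm11273*).

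Levels differed far more between members than between groups. Per kilobase of exon in WT, the members ranged from 0.058 CPM (*Cox6a2*) to 410 CPM (*Atp5b*), with a median of 64.1 CPM, and 22 of 86 were at 100 CPM or more. The median was 109 CPM for complex V, 85.8 for complex III, 74.6 for complex IV, 66.9 for complex II, 44.8 for complex I, and 10.1 for the complex I assembly factors. *Cox6b2*, *Cox7a1*, and *Cox6a2* were the 3 members below 1 CPM per kilobase.

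Lists of genes that regulate and build the chain are described by their counts, and nothing particular to them was tested. For these and the neighbouring lists below only the main fit was used, and the alternative settings were not applied. Of 17 regulators of mitochondrial biogenesis, 10 were called in DKO-severe against WT, all lower, where 52.6% of all genes tested were called and 25.9% were lower, with a median log2 fold change of -0.40 against -0.01 over all genes tested. The 10 include the coactivators *Ppargc1b* (-0.87, edgeR adjusted p = 0.00339) and *Pprc1* (-0.52, edgeR adjusted p = 0.00445), the mitochondrial DNA polymerase *Polg* (-0.58, edgeR adjusted p = 0.000313), the helicase gene listed as *Peo1* (*Twnk*, -0.72, edgeR adjusted p = 0.000289), the mitochondrial RNA polymerase *Polrmt* (-0.51, edgeR adjusted p = 0.00115), and the activator *Nrf1* (-0.34, edgeR adjusted p = 0.0135). *Tfam*, which packages mitochondrial DNA, had a log2 fold change of -0.20 (edgeR adjusted p = 0.0742). In DKO-moderate 3 of the 17 were lower, where 4.74% of all genes tested were lower. Of 33 tested assembly factors of complexes II to V, 14 were called in DKO-severe, 12 lower and 2 higher, beside the same shares of all genes. The higher genes were *Chchd8* (*Coa4*, 0.78, edgeR adjusted p = 0.00543) and *Sdhaf2* (0.18, edgeR adjusted p = 0.0404), and the lower ones include *Cox11* (-0.65, edgeR adjusted p = 8.31e-05), which delivers copper to complex IV, *Bcs1l* (-0.48, edgeR adjusted p = 0.0133), which inserts the Rieske protein, and *Lyrm7* (-1.01, edgeR adjusted p = 0.00243), its chaperone. Of 8 other assembly factors of complex I, 3 were lower in DKO-severe, where 25.9% of all genes tested were lower.

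The neighbouring mitochondrial lists were mixed, where 26.6% of all genes tested were higher and 25.9% lower in DKO-severe against WT. Of 76 mitochondrial ribosomal protein genes, 5 were higher and 12 lower in DKO-severe (median -0.05). Of 14 tricarboxylic acid cycle enzymes, 2 were higher and 2 lower (median 0.02): *Idh3a* rose by 0.63 (edgeR adjusted p = 7.78e-05) and *Fh1* by 0.44 (edgeR adjusted p = 0.00506) on the log2 scale, and *Idh2* (-1.21, edgeR adjusted p = 1.59e-05), at 83.7 CPM in WT and 36.3 CPM in DKO-severe, and *Suclg1* (-0.25, edgeR adjusted p = 0.0214) fell. Of 11 coenzyme Q synthesis genes, 2 were higher and 2 lower (median 0.01). No difference between lists was tested.

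**Figure D5:**
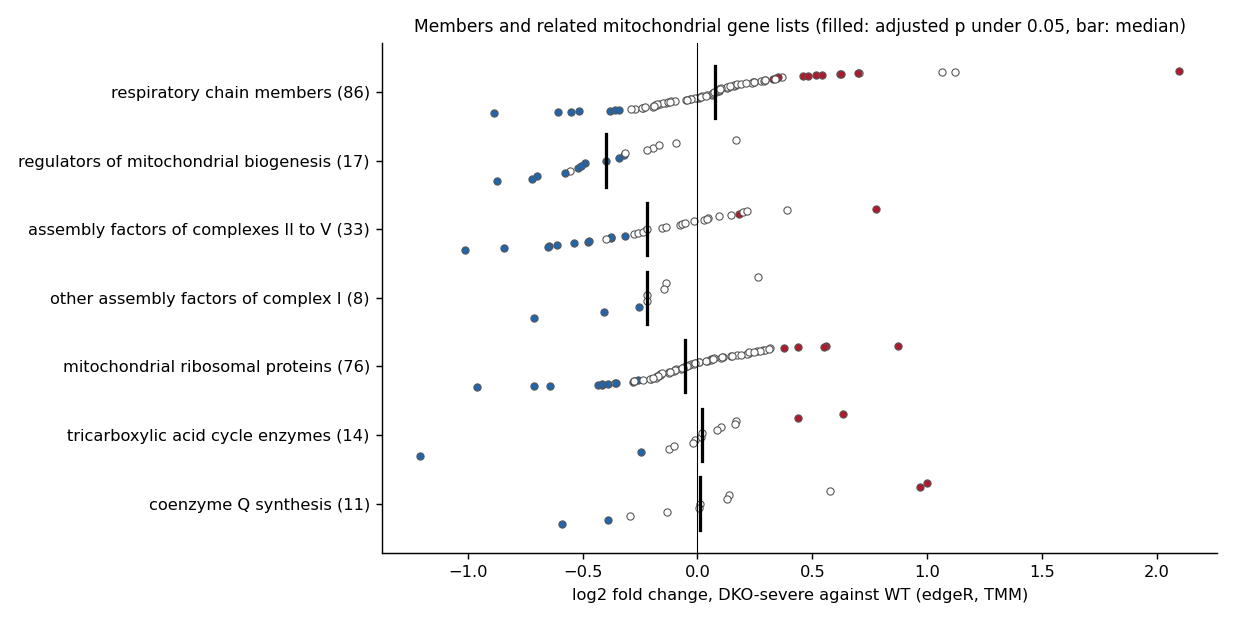
Change from WT to DKO-severe on the log2 scale (x axis) of the 86 members and of the genes in 6 related mitochondrial lists (rows, with the number of genes tested). Filled points passed an adjusted p of 0.05, and bars mark the medians, which lie at 0.08 for the members and at -0.40 for the regulators of mitochondrial biogenesis.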

How the data were processed

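The authors deposited raw counts per gene for each of 12 libraries, 1 per mouse, made with a stranded kit. Per the study's methods and the submitters' notes, reads were aligned to mm10 with STAR 2.7.11, keeping uniquely mapped reads, and counted with HTSeq on the reverse strand. The annotation is not given in the sources used here. Groups came from the sample titles. A gene was kept (16035 were) where the libraries of any condition together had 10 or more reads, scaled by TMM, and tested with the quasi-likelihood F test of edgeR 4.0.16 (R 4.3.3) in 1 fit of 3 groups. P-values were adjusted by Benjamini-Hochberg across the 16035 genes, and a gene was called at 0.05. Shares of reads were compared by two-sided exact permutation tests. CPM means and SDs are over 4 libraries, and intervals on 0 counts cover counting error only. All 86 members passed the filter. Symbols, coordinates, and exon lengths were matched to GENCODE for GRCm38 (84 by symbol and 2 by an older symbol), and promoter sequences were taken from RefSeq for GRCm38.p6. Genes named are fixed core subunits, fixed isoform sets, and the called members with the largest changes in each complex. The called members *Ndufs7*, *Ndufa10*, and *Ndufv2* are outside these rules and were chosen after their values were seen. Related-list genes are examples chosen in the same way. *Cox4nb* was set apart after the counts were seen. The members and lists were chosen with earlier results of these data known. The fit was tested on simulated counts. Alternatives were DESeq2 1.42.0, limma voom (3.58.1), other scalings, filters, covariates, and leaving out each library. No 2 libraries of a group agreed within sampling noise. Figures used Python 3.11.15 and matplotlib 3.10.9.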

Additional observations from a re-analysis of the deposited data

Results flagged for a closer look

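Among 141 groups of 4 libraries looked at over 47 items (named members and sums), 15 held 1 library far from the others, where chance alone gives about 1 in 20 groups, and 10 of the 15 were DKO-moderate 4. These 10 are not independent, since it is 1 library and the sums contain the single genes. In DKO-moderate 4, *Atp5j* was at 122.7 CPM (next highest 89.1), *Cox5b* at 129.8 (85.3), *Cox6a1* at 169.6 (112.1), *Ndufb3* at 51.7 (34.0), *Ndufv1* at 115.2 (82.9), and *Sdhb* at 107.5 (86.2). Its sums were 2665.7 CPM for complex I (next highest 1899.4), 1037.5 for complex III (796.3), 3992.2 for complex V (3189.4), and 10649.7 for all members (8215.3). In DKO-severe 1, *Cox5a* was at 86.8 CPM (next highest 75.9), *Ndufa10* at 77.9 (70.5), and *Sdhb* at 93.8 (78.2). In WT, *Cox7a2* was at 42.6 CPM in library 1 (next lowest 50.6) and *Cycs* at 13.3 CPM in library 2 (next lowest 39.0).

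The change from WT differed between the DKO groups for 3 members, tested as DKO-severe minus DKO-moderate in edgeR's quasi-likelihood test, with log2 differences of -0.52 for *Cox7a2l*, -0.37 for *Ndufa6*, and -0.58 for *Ndufaf4*. In each the 4 DKO-severe libraries were below the 4 DKO-moderate libraries.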

How the results depend on the processing

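Single named members were compared with their values under each alternative. In 2526 comparisons the gene was called in both fits in the same direction, or in neither. In 138 a call was lost, in 83 a call was gained, and no call reversed. The direction of genes called in neither fit was not compared, and some of these changed sign. In DKO-severe against WT (10 members higher and 8 lower), the higher count was 18 with DESeq2 size factors, 26 with library size alone, 21 with DESeq2, 18 with limma voom, 25 in a fit of the compared groups only, 0 with terms for neutrophil and B cell genes, and 4 at an adjusted p under 0.01, and leaving out 1 library gave 6 to 24. The lower count was 4 with DESeq2 size factors, library size alone, or DESeq2, 12 with limma voom, 5 with the replicate block, 2 with the neutrophil and B cell terms, and 4 at 0.01, and leaving out 1 library gave 4 to 10. In DKO-moderate against WT (6 higher and 1 lower), the higher count was 14 with library size alone or DESeq2, 3 in the fit of the compared groups or with a term for Y-linked genes, 2 with the neutrophil and B cell terms, and 0 at 0.01, and leaving out 1 library gave 2 to 13. The lower count was 2 with limma voom and 0 in the fit of the compared groups, with the replicate block, with the neutrophil and B cell terms, and at 0.01, and leaving out 1 library gave 0 to 2. In DKO-severe against DKO-moderate (0 higher and 3 lower), the higher count was 1 with DESeq2 size factors, library size alone, or DESeq2 and 4 with limma voom, and leaving out 1 library gave 0 to 3. The lower count was 5 with limma voom and 0 with the neutrophil and B cell terms, and leaving out 1 library gave 2 to 5. Over all genes tested in DKO-severe against WT, 52.6% were called, 60.9% with limma voom, and 19.9% with the neutrophil and B cell terms. Higher genes made up 50.7% of the calls, 57.8% with DESeq2 size factors, and 66.5% with library size alone. In DKO-moderate against WT, 17.1% of all genes were called, 24.4% with DESeq2. In DKO-severe against DKO-moderate, 20.1% were called, 38.2% with limma voom. The cause of these shifts was not tested.

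The replicate numbers shared by the groups did not pair the libraries: deviations from the group means correlated with a median r of -0.034 over 12 pairs with the same number and 0.013 over 36 pairs with different numbers. With the replicate block, 10 members were higher and 5 lower in DKO-severe against WT, 4 higher in DKO-moderate against WT, and 3 lower in DKO-severe against DKO-moderate. The depth limits the genes of few reads, *Cox6a2* (21 in all) and *Cox7a1* (93), whose intervals span over 2 units on the log2 scale.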

Other observations

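A few genes of the chain were listed under other symbols and so were not members. Of 8 such genes, *2410091C18Rik* (now *Ndufaf7*, a methyltransferase needed for complex I assembly) rose by 0.49 on the log2 scale in DKO-severe against WT (edgeR adjusted p = 0.0159), *2310003L22Rik* (now *Ndufaf5*, a further assembly factor of complex I) had a log2 fold change of -0.44 (edgeR adjusted p = 0.0207), and the other 6 did not pass. Over all genes tested, 26.6% were higher and 25.9% lower in DKO-severe against WT. In coenzyme Q synthesis, which makes the carrier between complexes I or II and complex III, *Coq3* had a log2 fold change of 0.97 (edgeR adjusted p = 0.000931) and *Adck3* (*Coq8a*) 0.997 (edgeR adjusted p = 0.00114), while *Coq2* had -0.59 (edgeR adjusted p = 0.000892) and *Coq6* -0.39 (edgeR adjusted p = 0.0449).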
